A study of Mus musculus with 18 samples.

Results

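Resident macrophages of the heart that lack surface CCR2 were compared between 20-month-old (aged) and 3-month-old (young) mice. The comparison holds 6 of the 18 libraries of the series, 3 of each age, which were chosen by their labels, and all 55401 genes of the count table. The series sets CCR2- against CCR2+ cardiac resident macrophages (CRMs) in young mice, aged mice and mice fed a high-fat diet, and asks how each subset differs with age. The 6 young and aged CCR2+ libraries entered the fit to share its estimate of spread. The 6 high-fat diet libraries were used only as part of the reference in checks of the libraries. All mice of the young and aged groups were female C57BL/6J on normal chow, and no transgene or drug is given for them. The young mice are labelled as controls. Left ventricles were digested with collagenases after perfusion, and CRMs were sorted on CD11b, CX3CR1 and CCR2, with at least 5000 cells per library. RNA was copied into full-length cDNA with the SMART-Seq v4 kit, which amplifies very small amounts of RNA by PCR. A legend of the study counts mice per group for sorted CRMs, but no source ties a library to 1 heart or to a pool, so every SE and p here measures only the spread between these samples.

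CCR2- CRMs are seeded before birth, renew themselves in the tissue and clear dying cells and debris. They are marked by the hyaluronan receptor LYVE1, the folate receptor FOLR2 and the phosphatidylserine receptor TIMD4. CCR2 is the receptor through which classical monocytes follow the chemokine CCL2 out of the marrow, and cells that have just arrived from the blood carry it. Macrophages sense virus-like nucleic acids and answer with type I interferon, which acts through STAT and IRF factors on a large set of antiviral genes and on the machinery of MHC class I presentation.

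Total counts ran from 45977986 to 55064650 per library, and 14125 to 17068 genes had at least 1 count. A count of 3, which is the lowest level read here as above 0, equalled 0.0400 to 0.0717 CPM, the standard count relative to library size, here after scaling by the trimmed mean of M values (TMM). This limit allows for counting error alone, since PCR copies of a cDNA are not separate molecules. Library 3 of each age stood apart, since it lay between libraries 1 and 2 of its own age. In young library 3, 98.8% of 6286 genes lay within 1.5-fold of a weighted sum of young libraries 1 and 2, with weights of 0.55 and 0.463. In aged library 3, 98.8% of 7843 genes lay within 1.5-fold of such a sum, with weights of 0.472 and 0.608. The same sum fitted to any library of the other 4 groups of the series reached 5.39% to 22.4% of genes. Young library 3 held 2 genes of at least 500 counts that were under 10 counts in both other young libraries, and aged library 3 held 4, against 24 to 135 in the libraries of the other groups. Libraries 1 and 2 themselves were far apart, with a Pearson r over genes of 0.677 between the young ones and 0.748 between the aged ones on log2(CPM + 1). They differed at least 2-fold in 5393 of 14192 genes (38.0%) in young and in 6314 (44.5%) in aged. Results are therefore given with library 3 and, where this alters them, without it.

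**Figure D1:**
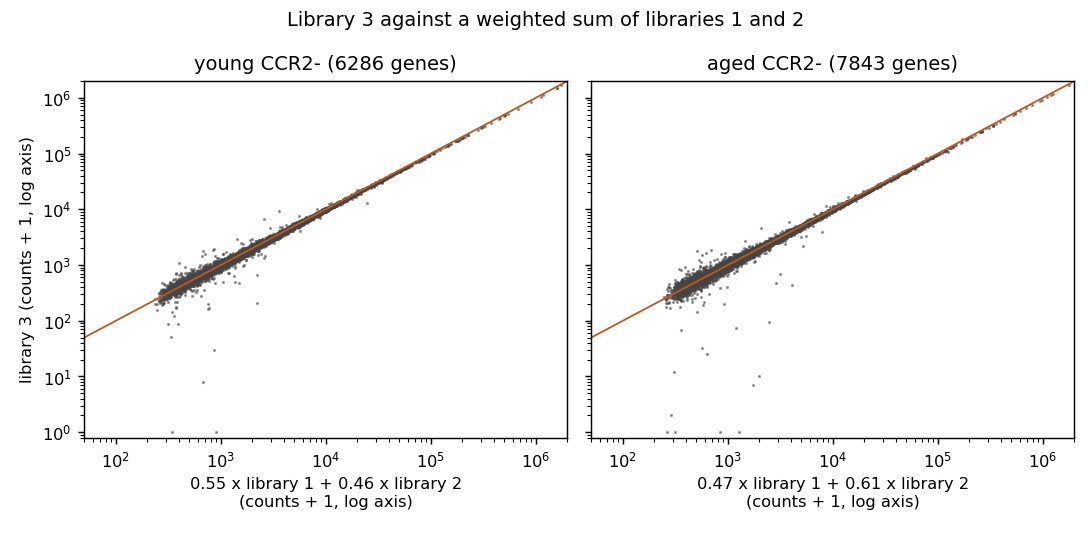
Counts of library 3 against a weighted sum of libraries 1 and 2 of the same age, both as counts + 1 on log axes, for 6286 young (left) and 7843 aged (right) genes. Each point is a gene and the line marks equal values. The points follow the line, and 98.8% of the genes of each age lie within 1.5-fold of it.

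Genes common in the other 12 libraries were more often missing from the young CCR2- libraries. Of 3461 genes with a median of at least 20 CPM there, 12.6%, 17.1% and 6.27% lay below 10% of that median in young libraries 1 to 3, and 9.33%, 1.39% and 0.722% in aged libraries 1 to 3. Both young libraries 1 and 2 and neither aged one missed 130 of these genes (3.76%), and the reverse held for 4 genes (0.116%). The 12 reference libraries are the young and aged CCR2+ libraries and the high-fat diet libraries of both subsets. A gene with little RNA in CCR2- CRMs of young mice therefore counts as missing too. Where a gene below stands near 0 in every young library, the part of such missing genes in its difference was not tested. Pan-macrophage genes summed to 59077, 76561 and 47989 CPM in young and to 56492, 34736 and 32610.3 CPM in aged libraries. Macrophage genes were thus abundant at both ages, but their sum in aged libraries 2 and 3 lay below every young library. Adgre1, which encodes F4/80, measured 501, 777 and 463 CPM in the young and 282, 688 and 418 CPM in the aged libraries. Cx3cr1, a gate of the sort, stood at 4.77, 105 and 38.2 CPM in young and at 166, 204 and 151 CPM in aged libraries. Timd4 was above 20 CPM in libraries 1 and 3 of each age but at 2.44 CPM in young library 2 and 0.713 CPM in aged library 2, so this marker differed more between libraries of an age than between the ages. In bulk RNA, fewer cells of a type and less RNA per cell cannot be told apart.

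No gene passed the threshold in edgeR's quasi-likelihood test on the 12 young and aged libraries (14192 genes, 0% called in each direction). The threshold asked for an adjusted p under 0.05 together with a log2 fold change past 2. The smallest Benjamini-Hochberg adjusted p was 0.0936, and it was 0.415 without library 3. At an unadjusted p under 0.05, 2143 genes (15.1%) stood higher in aged CRMs and 1153 (8.12%) stood lower. With the scaling of DESeq2 in the same test these were 1711 and 1481. All 3 aged libraries lay above all 3 young ones in 2062 genes (14.5%) and below them in 2071 (14.6%), or 1578 and 2970 with that scaling. Over libraries 1 and 2 alone these counts were 2566 (18.1%) and 3350 (23.6%). Fewer libraries separate more easily, so the larger counts are not read as a larger difference between the ages. Since library 3 lay close to a sum of libraries 1 and 2, separation does not rest on 3 independent samples per age. It is a description and carries no p. DESeq2 on the same 12 libraries called 1523 genes higher (10.7%) and 1206 lower (8.5%), and gave no adjusted p for 2274 genes. Without library 3 it called 466 of 14674 genes higher (3.18%) and 605 lower (4.12%). Fitted to the 6 CCR2- libraries alone, edgeR called 769 genes higher and 146 lower. Over all genes the median log2 fold change was -0.10 under TMM, -0.59 under the scaling of DESeq2 and 0.08 under library size alone, so the direction of small differences depends on the scaling. The genes below are therefore described by their level in each library, and none of them passed the adjusted threshold in edgeR's test on the 12 libraries. All gene lists were chosen with earlier results of these data known, so the shares of separated members are descriptions.

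The genes that mark resident macrophages stood lower in aged CCR2- CRMs. All 18 tested members of the list had a negative log2 fold change, with a median of -1.65 against -0.10 over all genes, and 11 of 18 lay below every young library (14.6% of all genes did). Without library 3 the median was -1.61 and 11 members were separated. Separated genes stay so when libraries are left out, apart from the rescaling, so this count adds no support. Without aged library 1 the median was -2.303. Selenop, which encodes the secreted selenium carrier selenoprotein P (chr15:3268547-3280508, GRCm38), measured 3412, 2896 and 2369.5 CPM in young and 974, 1137 and 813 CPM in aged libraries. The lowest young library held 2.08 times the highest aged one, and the log2 fold change was -1.57 (SE 0.37). Pf4, the chemokine CXCL4, measured 3286, 2799 and 2238 CPM in young and 1323, 544 and 616 CPM in aged libraries, again without overlap (-1.74, SE 0.48). Cd163, the scavenger receptor for haemoglobin bound to haptoglobin, stood at 248, 263 and 191 CPM in young and at 44.6, 26.0 and 19.2 CPM in aged libraries. Its lowest young value was 4.28 times the highest aged one (-2.97, SE 0.91). Lyve1 (chr7:110850607-110863239) measured 737, 1046 and 642 CPM in young and 467, 80.4 and 166 CPM in aged libraries, with the aged library 1 nearest the young ones. Folr2 went from 1213, 1109 and 830.2 CPM in young to 592, 177 and 243 CPM in aged libraries. Mrc1, the mannose receptor CD206, was at 603, 283 and 354 CPM in young and at 54.3, 105 and 66.1 CPM in aged libraries. These 3 receptor genes did not overlap between the ages either. Cbr2, a carbonyl reductase used as a marker of these cells, measured 2527, 2970.0 and 1994 CPM in young and 1455, 378 and 588 CPM in aged libraries. Not every resident gene followed. Igf1, a growth factor that these macrophages supply to the heart, measured 176, 125 and 112 CPM in young and 179, 121 and 97.1 CPM in aged libraries, and its log2 fold change of -0.05 (SE 0.95) turned positive under library size alone. Timd4 overlapped between the ages (-0.95, SE 1.50), and its level followed the library number more than the age.

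Several abundant products of tissue macrophages shared this direction. Apoe, the lipid carrier, was at 22246, 28757 and 17594 CPM in young and at 12333, 11081 and 8780.1 CPM in aged libraries (-1.09, SE 0.29). Wfdc17, a secreted protease inhibitor family member of macrophages, measured 2631, 2431 and 1866 CPM in young and 1054, 807 and 678 CPM in aged libraries (-1.45, SE 0.30). The ages did not overlap in either gene. Retnla, which encodes the alternative activation marker RELM-alpha, stood at 787, 485 and 482 CPM in young and at 241, 25.1 and 70.9 CPM in aged libraries (-2.38, SE 0.71). Rhoh, a GTPase-deficient signalling protein of blood cells, was at 145, 90.2 and 90.5 CPM in young and at 1.46, 2.55 and 1.77 CPM in aged libraries. Gpr34, a lysophosphatidylserine receptor, was at 109, 99.8 and 79.0 CPM in young and at 1.53, 1.36 and 0.360 CPM in aged libraries. In these 2 genes every young library lay at least 35.3 times above every aged one, with log2 fold changes of -5.81 (SE 1.67) for Rhoh and -6.47 (SE 1.49) for Gpr34. Grap, an adaptor that links receptors to Ras, measured 183, 93.6 and 104 CPM in young and 4.12, 3.69 and 2.92 CPM in aged libraries (-5.15, SE 0.92).

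Monocyte genes showed the opposite order. Ccr2 itself (chr9:124101950-124113557), whose product was gated out in this sort, was at 2.44, 2.94 and 3.92 CPM in young and at 108, 33.1 and 47.0 CPM in aged CCR2- libraries, with a log2 fold change of 4.34 (SE 0.88). Every aged library was at least 8.43 times above every young one. The level in sorted CCR2+ CRMs was 311, 257 and 56.1 CPM in young and 359, 302 and 132 CPM in aged libraries. Aged CCR2- library 1 thus held more Ccr2 RNA than 1 of the 3 young CCR2+ libraries. Of 10 monocyte genes, 8 stood higher and 2 lower in aged CRMs, 5 were separated above (14.5% of all genes) and none below, and their median log2 fold change was 1.66. That median was 2.57 without young library 2 and 1.15 without aged library 1. Plac8, a small protein abundant in monocytes, measured 55.1, 177 and 91.0 CPM in young and 1317, 939.9 and 834 CPM in aged libraries (3.26, SE 0.95). Ly6c2, the surface antigen of classical monocytes, was at 2.03, 61.6 and 25.7 CPM in young and at 394, 84.5 and 138 CPM in aged libraries. In Plac8 and Ly6c2 aged library 1 was the highest of the 6, and no aged library overlapped the young ones.

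A group of genes known from non-classical (Ly6C-low, patrolling) monocytes was assembled after its values were seen and is given as a description only. Of its 16 members, 15 stood higher in aged CRMs, 13 were separated above (14.5% of all genes), and the median log2 fold change was 2.66. Treml4, a receptor of patrolling monocytes, measured 0.523, 1.77 and 2.03 CPM in young and 232, 239 and 177 CPM in aged libraries, so the lowest aged library was 87.1 times the highest young one. Cd300e, an activating receptor of the same cells, was at 0.305, 2.77 and 1.26 CPM in young and at 263, 151 and 151 CPM in aged libraries. Ceacam1, an adhesion molecule of these monocytes, was at 5.91, 7.32 and 5.10 CPM in young and at 243, 245 and 184 CPM in aged libraries. Each of these 3 genes varied by less than 2-fold among the aged libraries, unlike Ccr2 and Ly6c2. Itgax, which encodes CD11c, was at 0.610, 0.789 and 1.60 CPM in young and at 86.6, 91.6 and 74.0 CPM in aged libraries. Nr4a1, the nuclear receptor that patrolling monocytes need to develop, was at 69.2, 155 and 79.2 CPM in young and at 727, 279 and 323 CPM in aged libraries. Cyp4f18, an enzyme that breaks down leukotriene B4, was at 76.2, 15.1 and 32.4 CPM in young and at 804, 561 and 479 CPM in aged libraries (3.90, SE 0.67). The list summed to 588, 1081 and 600.1 CPM in young and to 4355, 3592 and 2942 CPM in aged libraries. Over the same libraries the sum of the resident list was 15926, 14518 and 11248 CPM in young and 7319.5, 3231 and 3527 CPM in aged. Neutrophil markers, which share genes with monocytes, summed to 29.7, 519.6 and 186 CPM in young and to 655, 787 and 524 CPM in aged libraries. Whether monocytes in the sorted fraction or monocyte genes within CRMs carried these values was not tested.

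**Figure D2:**
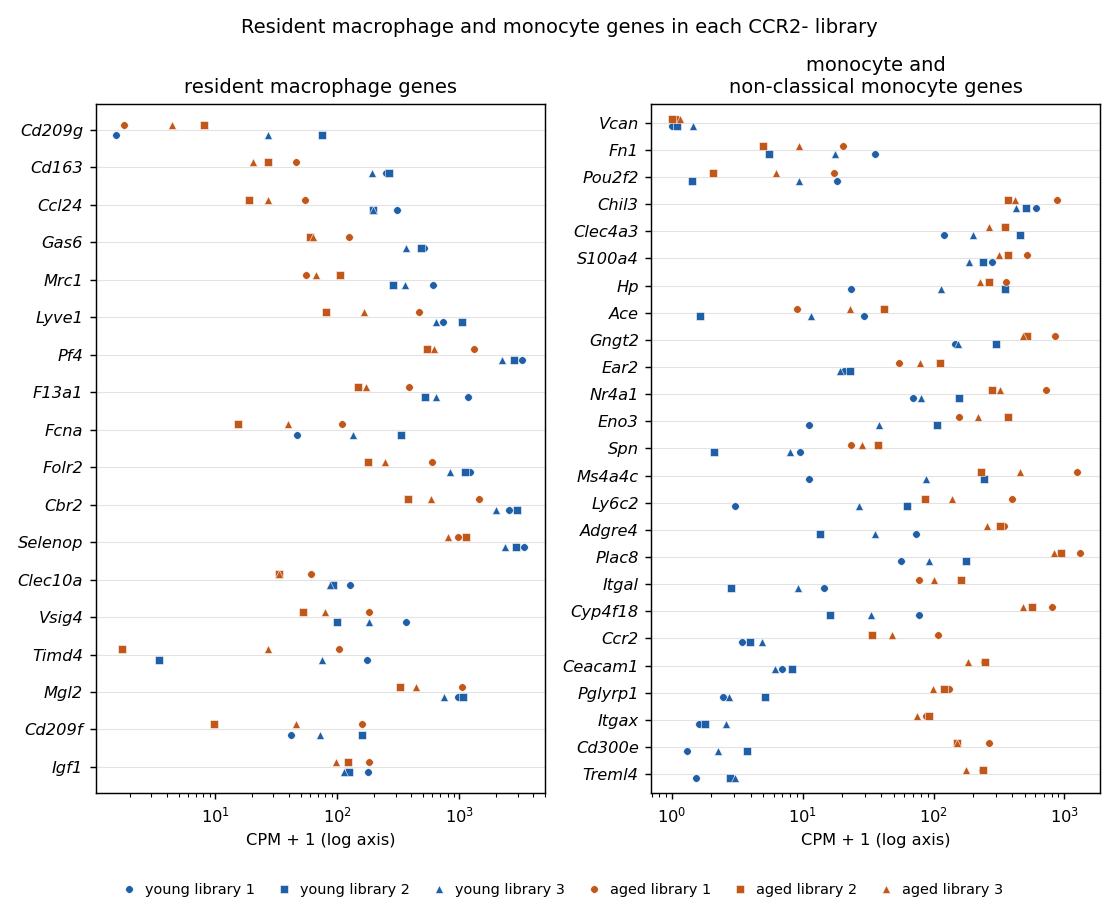
Each row is a gene and each point its level in 1 library, as CPM + 1 on a log axis, with young libraries in blue, aged libraries in orange and the marker showing the library number. In the left panel Selenop, Pf4 and Cd163 have every aged point below every young one, while Timd4 and Igf1 overlap. In the right panel Ccr2, Plac8 and Treml4 have every aged point above every young one.

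Genes of MHC class I presentation stood higher in aged CCR2- CRMs and those of class II did not. Of 11 class I genes, 10 stood higher and 1 lower, 7 were separated above (14.5% of all genes) and none below. Their median log2 fold change was 1.13, the same without library 3, and 0.64 under the scaling of DESeq2. H2-K1, a classical class I heavy chain (chr17:33996017-34000347), measured 817, 1759 and 886 CPM in young and 4538, 2632 and 2608 CPM in aged libraries (1.50, SE 0.44). H2 heavy chain genes are close copies of each other, so reads may be split between them. Tapbp, which encodes tapasin and loads peptides onto class I molecules, was at 98.6, 63.9 and 58.1 CPM in young and at 521, 379 and 339 CPM in aged libraries (2.49, SE 0.59). Its lowest aged library was 3.44 times its highest young one. Tap2, a subunit of the transporter that brings peptides into the endoplasmic reticulum, was at 2.94, 2.61 and 3.41 CPM in young and at 49.7, 58.1 and 44.8 CPM in aged libraries. Psmb9, a subunit of the immunoproteasome that cuts these peptides, was at 76.7, 5.40 and 33.8 CPM in young and at 452, 149 and 192 CPM in aged libraries. The ages did not overlap in these 4 genes. The summed level of the class I list did overlap, at 14759, 27565 and 15011 CPM in young and 39103, 22778 and 22208 CPM in aged libraries with young library 2 above aged libraries 2 and 3.

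Most class II genes lie among those of class I presentation on chromosome 17. Of 10 class II and costimulation genes, 2 stood higher and 8 lower in aged CRMs, none was separated in either direction, and the median log2 fold change was -0.37. H2-Aa, a class II alpha chain (chr17:34282744-34287823), measured 8306, 15546 and 8377 CPM in young and 8966, 8594 and 6678 CPM in aged libraries (-0.41, SE 0.30). H2-Eb1, a class II beta chain, measured 7359, 13313 and 7234 CPM in young and 7397, 10102 and 6945 CPM in aged libraries (-0.19, SE 0.29, but positive under library size alone). Young library 2 was the highest of the 6 for both genes, and the other young libraries lay within the aged range. Ciita, the master activator of class II genes, was at 0.196, 1.03 and 0.205 CPM in young and at 0.894, 18.6 and 9.24 CPM in aged libraries, and the ages overlapped.

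**Figure D3:**
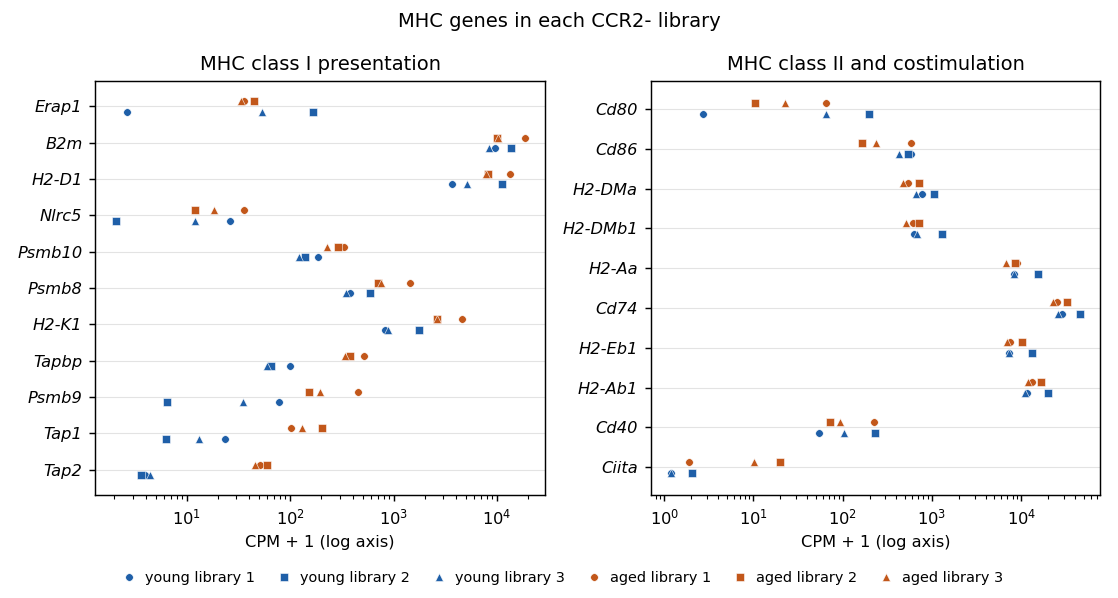
Levels of MHC class I presentation genes (left) and MHC class II and costimulation genes (right) in each CCR2- library, as CPM + 1 on a log axis, with young libraries in blue and aged in orange. Tapbp, Tap2, Psmb9 and H2-K1 are among the 7 of 11 class I genes with every aged point above every young one, and no class II gene is separated in either direction.

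Interferon-responsive genes stood higher in aged CCR2- CRMs, most of all in aged library 1. Of 48 targets of interferon, 42 had a positive log2 fold change and 6 a negative one, with a median of 1.83. In 18 of 48 every aged library lay above every young one (14.5% of all genes) and in none below, and 14 passed an unadjusted p under 0.05 as higher (15.1% of all genes). The sequences upstream of the 3 targets with the smallest p that hold an interferon-stimulated response element are shown here because this element is the site that complexes of STAT and IRF factors bind. It was searched on both strands as GAAA, any 2 bases, GAAA in RefSeq promoter windows of GRCm38.p6, from 250 bases before to 50 after the gene's start. Capitals mark the matches, which read as TTTC, 2 bases, TTTC on the strand of these genes, and the stretches are chr12:26456503-26456632 on the minus strand for Rsad2, chr19:34583313-34583476 on the plus strand for Ifit3 and chr19:34607709-34607872 on the plus strand for Ifit3b.
Rsad2: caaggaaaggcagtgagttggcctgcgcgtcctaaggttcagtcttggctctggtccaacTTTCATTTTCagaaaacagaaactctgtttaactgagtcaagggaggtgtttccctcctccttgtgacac
Ifit3: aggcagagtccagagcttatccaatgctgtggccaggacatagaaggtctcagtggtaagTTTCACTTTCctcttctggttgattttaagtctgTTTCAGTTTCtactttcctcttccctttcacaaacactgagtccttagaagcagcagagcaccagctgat
Ifit3b: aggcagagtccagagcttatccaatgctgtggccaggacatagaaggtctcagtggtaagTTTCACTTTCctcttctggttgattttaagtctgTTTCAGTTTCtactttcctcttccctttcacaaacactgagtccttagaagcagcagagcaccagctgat
The stretches of Ifit3 and Ifit3b are identical, so these genes are recent copies and their reads may be split between them. The element was found in 23 of the 41 targets with a promoter in the table (56.1%), against 1079 of 27025 promoters (3.99%) and 4.13% of the promoters of tested genes. A match is a description of the letters and not evidence of binding.

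Rsad2, which encodes the antiviral enzyme viperin, measured 2.75, 2.73 and 2.05 CPM in young and 256, 26.6 and 87.9 CPM in aged libraries (5.62, SE 1.13). Ifit3, which binds viral RNA together with other IFIT proteins, measured 22.9, 7.37 and 12.01 CPM in young and 831, 33.2 and 247 CPM in aged libraries (4.72, SE 1.52). Ifit2, of the same family, was at 1.50, 1.51 and 0.699 CPM in young and at 176, 14.1 and 58.5 CPM in aged libraries. In these genes aged library 2 was the lowest of the aged libraries and still above every young one, and library 3 lay between. Zbp1, a sensor of Z-form nucleic acids, was at 2.29, 4.33 and 3.24 CPM in young and at 403, 83.3 and 155 CPM in aged libraries (6.02, SE 1.39). Irf7, the factor that amplifies interferon production (chr7:141262706-141266481), was at 9.17, 10.9 and 10.1 CPM in young and at 2008, 96.9 and 610.0 CPM in aged libraries (6.49, SE 1.25). Cxcl10, an interferon-induced chemokine, was at 42.1, 53.8 and 34.8 CPM in young and at 213, 178 and 149 CPM in aged libraries. Cxcl10 varied by less than 2-fold among the aged libraries, whereas Irf7 and Rsad2 were far higher in aged library 1 than in aged library 2. Irf3, the factor that starts the interferon response, behaved in another way, with 1.002, 1.20 and 1.74 CPM in young and 1.64, 58.6 and 27.7 CPM in aged libraries, so its ages overlapped.

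Aged libraries 1 and 2 did not share this pattern equally. Aged library 1 lay above all young libraries in 39 of 48 targets and aged library 2 in 20 of 48, against 4229 and 4448 of 14192 tested genes. Aged library 1 was the highest of the 6 in 32 of the 48. The summed level of the targets was 6282, 5938 and 4487 CPM in young and 21996, 5558 and 8779 CPM in aged libraries, so in aged library 2 the sum lay within the young range. Over the full interferon and nucleic acid sensing list of 75 genes the median log2 fold change was 1.67, and it was 1.005 without aged library 1 and 1.76 without aged library 2. Among 14 sensors and adaptors 9 stood higher and 5 lower, with 3 separated above (14.5% of all genes) and 1 below (14.6%). Among 8 transcription factors 6 stood higher and 2 were separated above.

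All 13 tested genes encoded by the mitochondrial genome stood lower in aged CCR2- CRMs, and in all 13 every aged library lay below every young one (14.6% of all genes did). Their median log2 fold change was -1.51, or -1.56 without library 3, and all 13 passed an unadjusted p under 0.05 (8.12% of all genes did). Mitochondrial genes are transcribed together as long RNAs that are then cut, so they are not separate measurements. mt-Nd4, a subunit of respiratory complex I (chrM:10167-11544), measured 1333, 2553 and 1379 CPM in young and 451, 558 and 436 CPM in aged libraries (-1.87, SE 0.44). mt-Cytb, the cytochrome b of complex III, measured 2889, 5737 and 3072 CPM in young and 1458, 1471 and 1176 CPM in aged libraries (-1.51, SE 0.36). mt-Atp6, a subunit of the ATP synthase, measured 2414, 4442 and 2441 CPM in young and 1509, 1352 and 1108 CPM in aged libraries (-1.23, SE 0.32). Young library 2 was the highest of the 6 for each, and the lowest young library held 1.60 to 2.39 times the highest aged one. The summed level was 17246, 38336 and 19679.8 CPM in young and 10748, 9559 and 8220.1 CPM in aged libraries. The 40 nuclear genes of oxidative phosphorylation did not move as a group, with 17 higher and 23 lower and a median of -0.14. Of these, 5 were separated above (14.5% of all genes) and 9 below (14.6%).

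**Figure D4:**
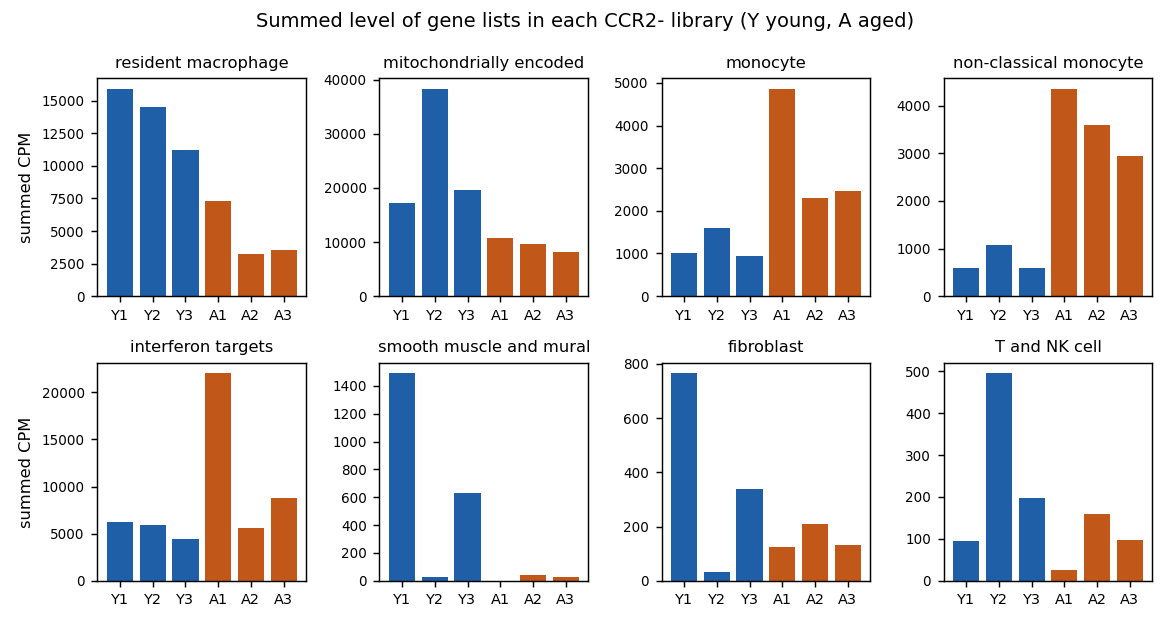
Bars give the summed CPM of a gene list in each young (Y, blue) and aged (A, orange) CCR2- library, from 0 and with an axis of its own for each list. The resident macrophage and mitochondrially encoded lists are lower in every aged library than in any young one and the 2 monocyte lists are higher. The non-classical monocyte list was assembled after its values were seen. The interferon targets stand out in aged library 1, and the smooth muscle and fibroblast lists in young libraries 1 and 3.

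Innate receptors, their adaptors and NF-kappaB genes moved in both directions. Of 36 genes, 23 stood higher and 13 lower in aged CRMs, with 11 separated above (14.5% of all genes), 3 below (14.6%) and a median log2 fold change of 0.59. The median was 0.05 with the scaling of DESeq2 and -0.09 with DESeq2 without library 3, so the direction of this list depended on the scaling and the tool. Traf1, an NF-kappaB target and adaptor of TNF receptors (chr2:34941750-34961772), measured 5.23, 7.32 and 2.76 CPM in young and 195, 159.7 and 126 CPM in aged libraries (4.97, SE 0.79). Its Benjamini-Hochberg adjusted p of 0.0936 in edgeR's quasi-likelihood test was among the smallest of all genes, and its lowest aged library was 17.3 times its highest young one. Tirap, an adaptor of TLR2 and TLR4, was at 0, 0.239 and 0.665 CPM in young and at 24.3, 33.4 and 22.0 CPM in aged libraries. Cytokine and chemokine genes leaned the other way, with 11 of 28 higher and 17 lower, 4 separated above (14.5% of all genes), 8 below (14.6%) and a median of -0.43. Without aged library 1 the median was -1.003. Cxcl2, a chemokine that draws neutrophils, was at 10506, 14294 and 8779 CPM in young and at 7846, 3506 and 3862 CPM in aged libraries (-1.14, SE 0.37). Ccl6 was at 5044, 3678 and 3280.2 CPM in young and at 3046, 1572 and 1412 CPM in aged libraries (-0.99, SE 0.38). For both chemokines the gap between the ages was narrow, at 1.12 and 1.08 times, and aged library 1 was the nearest to the young ones. Ccl24, eotaxin-2, was at 309.5, 194 and 194 CPM in young and at 53.1, 17.8 and 26.2 CPM in aged libraries.

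Genes of phagocytosis were mixed. Of 36 genes, 17 stood higher and 19 lower, with 7 separated in each direction (14.5% of all genes above and 14.6% below). Receptors (7 higher, 8 lower) and effectors (10 higher, 11 lower) were divided alike. Fcgr1, the high-affinity IgG receptor CD64, was at 63.0, 5.55 and 28.8 CPM in young and at 493, 184 and 227 CPM in aged libraries (3.22, SE 1.19). Fcgr3, the low-affinity IgG receptor CD16, stood the other way, with 3989, 5350.2 and 3387 CPM in young and 2794, 1869 and 1685 CPM in aged libraries (-1.004, SE 0.34). Neither gene overlapped between the ages. Swap70, a regulator of the actin cytoskeleton, was at 1.02, 1.29 and 2.15 CPM in young and at 79.7, 99.2 and 73.8 CPM in aged libraries (5.82, SE 1.05). Complement genes were mixed, with 11 of 24 higher and 13 lower, 8 separated above (14.5% of all genes), 5 below (14.6%) and a median of -0.12. Cfb, factor B of the alternative pathway, was at 3.22, 6.39 and 4.14 CPM in young and at 372, 385 and 298 CPM in aged libraries.

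Lysosomal, iron and glycolysis genes followed different orders. Of 28 lysosome genes, 14 stood higher and 14 lower, with 5 separated above (14.5% of all genes) and none below (14.6%). Psap, the precursor of the saposins that help to break down sphingolipids, measured 431, 455 and 382 CPM in young and 1107, 1594 and 1155 CPM in aged libraries (1.60, SE 0.55). Tfeb, the factor that switches on lysosome genes, was at 0.479, 0.574 and 0.836 CPM in young and at 20.6, 27.4 and 19.8 CPM in aged libraries. Both were separated, but the summed level of the list was 15882 to 24930.0 CPM in young and 19067 to 26228 CPM in aged libraries and overlapped. Of 10 iron and heme genes, 2 stood higher and 8 lower, with a median of -0.66, 1 separated above (14.5% of all genes) and 3 below (14.6%). Hmox1, the heme-degrading enzyme, measured 756, 524 and 520.0 CPM in young and 358, 299 and 283 CPM in aged libraries (-0.94, SE 0.41). Slc48a1, which carries heme out of the phagolysosome, was at 132, 187 and 122 CPM in young and at 52.9, 32.0 and 35.9 CPM in aged libraries. Neither gene overlapped between the ages. Ftl1, the ferritin light chain, did overlap, at 33493, 37899 and 25407 CPM in young and 26100, 17766 and 15928 CPM in aged libraries. Of 17 glycolysis genes, 12 stood higher and 5 lower with a median of 0.54, and Pkm, pyruvate kinase M, was at 418, 435 and 340.0 CPM in young and at 1055, 784 and 717 CPM in aged libraries (1.10, SE 0.34). Cybb, the catalytic subunit of the phagocyte NADPH oxidase, was at 261, 563 and 305 CPM in young and at 1029, 1260.2 and 922 CPM in aged libraries.

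Proliferation genes differed between the aged libraries and stood at low levels. Of 31 proliferation genes, 22 stood higher and 9 lower, with 7 separated above (14.5% of all genes), 3 below (14.6%) and a median log2 fold change of 2.72. Of the 19 cell cycle genes among them, aged library 1 lay above all young libraries in 4 and below all of them in 9, while aged library 2 lay above in 14 and below in 2. Over all 14192 genes these counts were 4229 and 4989 for aged library 1, and 4448 and 4564 for aged library 2. In 3 of the 19 cell cycle genes every aged library lay above every young one (14.5% of all genes). Ube2c, a ubiquitin-conjugating enzyme of mitosis, was at 1.44, 1.96 and 1.02 CPM in young and at 51.6, 16.7 and 24.7 CPM in aged libraries (4.39, SE 1.15). Birc5, which encodes survivin, was at 2.66, 2.56 and 2.78 CPM in young and at 61.2, 30.3 and 31.0 CPM in aged libraries. The most used marker of cycling cells did not follow, since Mki67 measured 5.51, 1.36 and 6.79 CPM in young and 1.16, 11.8 and 9.66 CPM in aged libraries. The summed level of the list overlapped, at 532 to 762 CPM in young and 709.7 to 912 CPM in aged libraries. Of 26 growth factor and matrix genes, 11 stood higher and 15 lower, with a median of -0.19. Hbegf, a ligand of the EGF receptor, was at 304, 111 and 171 CPM in young and at 34.9, 25.9 and 23.1 CPM in aged libraries (-2.80, SE 1.02). Il4ra, a chain of the receptors for IL-4 and IL-13, was at 22.1, 4.50 and 11.0 CPM in young and at 196, 88.7 and 93.8 CPM in aged libraries (3.33, SE 0.95). Senescence and DNA damage genes were split evenly, with 15 of 31 higher and 16 lower, 3 separated above (14.5% of all genes) and none below (14.6%). Heat shock genes differed between the aged libraries, since aged library 1 lay above all young libraries in 8 of 12, while aged library 2 did so in none. Over all 14192 genes this held for 4229 and 4448. Immediate early genes, ER stress genes, antioxidant genes, genes of lipid handling and macrophage transcription factors had between 1 and 6 separated members above and between 2 and 5 below, and medians from -0.34 to 0.32. These lists held 19 to 25 tested genes each, and over all genes 14.5% were separated above and 14.6% below.

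**Figure D5:**
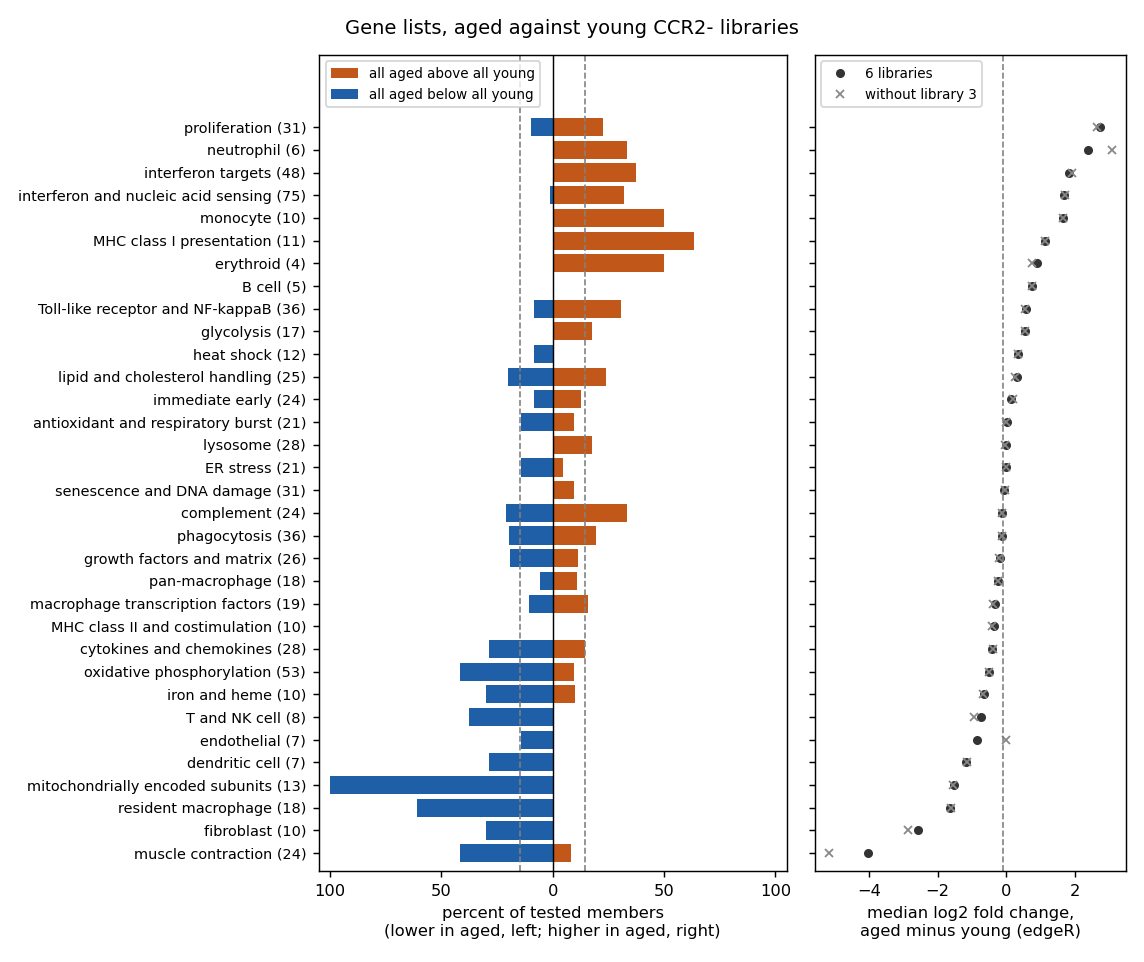
The left panel gives, for each gene list with its number of tested members, the percent of members with every aged library above (orange, right) or below (blue, left) every young one, and dashed lines mark the same over all genes (14.5% and 14.6%). The right panel gives the median log2 fold change of each list with 6 libraries (dots) and without library 3 (crosses), and its dashed line marks the median of all genes, -0.10. The mitochondrially encoded genes reach 13 of 13 below and the resident macrophage genes 11 of 18, and MHC class I genes reach 7 of 11 above.

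Genes of contracting muscle stood lower in aged CRMs, with smooth muscle genes highest in young libraries 1 and 3. Of 24 such genes, 21 stood lower, 10 were separated below (14.6% of all genes) and the median log2 fold change was -4.03. Acta2, smooth muscle actin, was at 570.1, 5.81 and 245 CPM in young and at 0.262, 26.2 and 13.4 CPM in aged libraries, so young library 2 lay inside the aged range. Cnn1, calponin of smooth muscle, was at 168, 1.55 and 68.8 CPM in young and at 0, 0 and 0.267 CPM in aged libraries. Smooth muscle and mural cell markers summed to 1489, 27.1 and 634 CPM in young libraries and to 1.85, 44.2 and 30.5 CPM in aged ones. Sarcomere and cardiomyocyte markers summed to 422, 228 and 266 CPM in young and to 62.0, 128 and 80.0 CPM in aged libraries, so all 3 young libraries were higher. Of these, Myl2, a ventricular myosin light chain, was highest in young library 2, at 0.654, 47.6 and 14.7 CPM in young libraries, and the cardiac myosin heavy chain Myh6 was at 0 to 0.153 CPM in all 6. Fibroblast markers summed to 765, 31.1 and 338 CPM in young and to 125, 209 and 133 CPM in aged libraries, with young libraries 1 and 3 highest. The CArG box, which serum response factor binds in muscle genes, was found in 3 of the 28 muscle genes with a promoter in the table (10.7%) and in 488 of 27025 promoters (1.81%). T and NK cell markers were highest in young library 2, at 95.8, 494 and 198 CPM in young and 24.8, 159 and 96.8 CPM in aged libraries. Among them Cd4 stood at 1.92, 212 and 67.1 CPM in young libraries, and Cd3e at 0.768 to 1.27 CPM in all 6. The dendritic cell receptor gene Flt3 was at 0.632, 108 and 31.4 CPM in young and at 0.480, 0.238 and 0.800 CPM in aged libraries. Of 7 endothelial markers 3 stood higher and 4 lower, of 5 B cell markers 4 stood higher and 1 lower, and all 4 erythroid genes stood higher. The part of these other cell types in the comparison was not tested.

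Sorted CCR2+ CRMs gave a second comparison of the same ages with their own libraries. No gene differed between the subsets in its age effect at an adjusted p under 0.05 in edgeR's quasi-likelihood test of that difference, where 3097 genes were at an unadjusted p under 0.05 and the smallest Benjamini-Hochberg adjusted p was 0.0576. In 62 genes (0.437%) every aged library lay above every young one in CCR2- and below in CCR2+ CRMs, in 136 (0.958%) the reverse held, and together these were 198 of 14192 (1.4%). The mitochondrially encoded genes stood lower in aged CCR2+ CRMs as well, in 13 of 13, with a median log2 fold change of -1.16. The resident list had a median of -0.99 there, with 13 of 18 lower, and the interferon targets had a median of 2.49, with 39 of 48 higher. Over all genes the CCR2+ median was 0.20, but among the 268 genes of at least 500 CPM it was -0.64 with 228 lower, so most abundant genes stood lower there. In CCR2- CRMs the same 268 genes had a median of -0.19 with 166 lower and 57 separated below (14.6% of all genes). The class I list had a median of 0.12 in CCR2+ CRMs against 1.13 in CCR2- CRMs. The non-classical monocyte list had 0.56 against 2.66. It was assembled after its values were seen, so no subset difference is read from it. Ccr2 showed a log2 fold change of 0.35 in CCR2+ and 4.34 in CCR2- CRMs, with a test of the difference at a Benjamini-Hochberg adjusted p of 0.106 in the same edgeR test.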

How the data were processed

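The authors deposited raw read counts per gene for all 18 libraries in 1 table, which held counts as whole numbers and was used as deposited. Upstream they used Cutadapt for trimming, HISAT2 for mapping and StringTie for assembly. The study names the release of its reference annotation, while tool versions, the genome build and the use of strand are not given in the sources used here. Gene positions came from GENCODE M21 (GRCm38), another release, and promoters from RefSeq (GRCm38.p6). Samples were grouped by their labels, and the ages and strain came from the methods of the study. Counts of the 12 young and aged libraries were filtered with filterByExpr, scaled by TMM and fitted with the quasi-likelihood test of edgeR 4.0.16, and p-values were adjusted by Benjamini-Hochberg over 14192 genes. Calls needed an adjusted p under 0.05 as well as a log2 fold change past 2. Each SE was worked back from that test, as the absolute log2 fold change divided by the square root of its F statistic. Alternatives were DESeq2 1.42.0, limma 3.58.1 with voom and sample weights, other scalings and filters, a replicate block, and leaving out each library or library 3 of both ages. The replicate numbers did not pair the ages. Genes were named by rule, as those the study names, the 15 protein-coding genes with the smallest p per direction at a mean of at least 20 CPM, and the 4 smallest p of each list. Ifit3, Ifit3b, Mrc1, Acta2, Myh6, Mki67, Cd3e, Adgre1 and Cx3cr1 were added outside the rule, after their values were seen. The members and lists were chosen with earlier results of these data known. The promoters with a CArG box were counted and are not printed, and a few list members are counted but not reported here by name. The edgeR fit alone was run on simulated counts. Recovery of the changed genes was required only at a dispersion far below that of these data. Another run at a dispersion near that of these data had no such requirement, and its recovery is not reported here.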

Additional observations from a re-analysis of the deposited data

Results flagged for a closer look

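In 7 of the 72 genes followed across alternatives the 3 CCR2- libraries of aged mice all lay on one side of the young ones and the 3 CCR2+ libraries all on the opposite side. Over all 14192 tested genes this held for 198 (1.4%), so the 7 are examples and not the full set. The test of the difference between the subsets (edgeR's quasi-likelihood test, Benjamini-Hochberg adjustment over all tested genes) did not pass the threshold for any of them. The values below are the age effect in CCR2- minus that in CCR2+ CRMs, on the log2 scale, and both subsets are of the same ages with their own libraries.

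Among these, 3 genes stood higher with age in CCR2- and lower in CCR2+ CRMs. Traf1, the adaptor of TNF receptors, differed by 6.69 (4.97 in CCR2- and -1.72 in CCR2+ CRMs, adjusted p = 0.0576). Cyp4f18, which breaks down leukotriene B4, differed by 5.64 (3.90 and -1.74, adjusted p = 0.0633). Pkm, pyruvate kinase M, differed by 1.91 (1.10 and -0.81, adjusted p = 0.101).

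The other 4 stood lower with age in CCR2- and higher in CCR2+ CRMs. Tfec, a transcription factor of the MITF family in macrophages, differed by -10.84 (-6.47 and 4.38, adjusted p = 0.0765). Iqgap2, a scaffold protein of the cytoskeleton, differed by -8.82 (-4.26 and 4.57, adjusted p = 0.0576). Grap, the adaptor to Ras, differed by -7.84 (-5.15 and 2.69, adjusted p = 0.0576). Slc48a1, the heme carrier of the phagolysosome, differed by -6.01 (-1.87 and 4.14, adjusted p = 0.0767).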

How the results depend on the processing

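Called genes went from 0 higher and 0 lower to 769 and 146 with edgeR on the 6 libraries alone, 1523 and 1206 with DESeq2 on 12 libraries, 2272 and 1350 with DESeq2 on 6, 3118 and 1625 with limma-voom, 466 and 605 with DESeq2 without library 3, and 2 and 0 with library size alone (Traf1 and Sra1) or with no filter (Irf7 and Ly6i). Keeping in the edgeR fit only genes with a mean of at least 100, 200 or 500 CPM, alternatives chosen after seeing the data, called 3 and 0 (Traf1, Sra1 and Cyp4f18), 2 and 0 (Irf7 and Cyp4f18) or 1 and 1 (Plac8 and Retnla), and 0 in each case without library 3. In the fit at 500 CPM, 8 more genes (Selenop, Pf4, Wfdc17, mt-Nd4, mt-Nd2, mt-Cytb, S100a10 and Glul) reached adjusted p-values of 0.0441 to 0.0470 and missed only the fold limit. Genes higher at an unadjusted p numbered 3994 with limma-voom, 906 without library 3, 1198 with DESeq2 without library 3, and 1343 to 2199 when single libraries were left out. Genes lower numbered 1809 with DESeq2 on 12 libraries, 2088 on 6, 2672 with limma-voom, 459 at a minimum of 10 counts in every CCR2- library, which by construction removes genes near 0 at one age, and 989 to 1325 when single libraries were left out. Separated genes below numbered 1194 at that minimum, 3445 without library 3 and 2642 to 3702 when single libraries were left out, and those above 2323 to 4078. Separation is easier to meet with libraries left out, so these larger counts are not read as a larger difference.

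With the replicate number as a block, 0 genes were called and 1708 stood higher and 1032 lower at an unadjusted p. The same-numbered libraries of the ages did not deviate together in every pair (r of 0.0105, -0.0131 and 0.231), so the number is not read as a pairing. Young library 2 correlated best with aged library 1, and the other 2 young libraries with their own number.

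Over the 72 followed genes, 1009 of 1219 values under alternatives kept direction and side of the threshold, 202 came past it, and 8 turned sign in Timd4, Igf1 and H2-Eb1. These were Igf1 with edgeR on 6 libraries (0.00018), with library size alone (0.0853) and with no filter (0.0357), and H2-Eb1 with library size alone (0.0792). The others came when single libraries were left out, where Timd4 ran from -2.65 to 0.0150, Igf1 from -0.320 to 0.118 and H2-Eb1 from -0.424 to 0.0903. The cause was not tested. At these depths the spread between libraries sets the precision, with a median dispersion of 1.31, and each SE and p counts library 3 as a separate sample although it lay close to a sum of the other 2. The counts of genes separated over 3 libraries treat it in the same way.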
